A study of Mus musculus with 37 samples.

Results

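Major urinary proteins (Mups) are small carriers of volatile pheromones that the mouse liver secretes for excretion in urine. The rows with the symbols Mup7, Mup14, Mup1, Mup2, Mup20, Mup3 and Mup21 were taken from every count file, singly and as a sum. These 7 rows are part of the 20 rows that carry a numbered Mup symbol, among 24421 gene rows in all. RNA of 37 livers was sequenced after removal of ribosomal RNA, with 1 library per mouse. All mice were C57BL/6 and 2 months old. The groups were wild-type (WT) males (n = 6), Y665F males (n = 9), Y665H males (n = 4), WT females (n = 6), Y665F females (n = 6) and Y665H females (n = 6). Y665F and Y665H replace a tyrosine in the SH2 domain of STAT5B with phenylalanine and with histidine. Whether the mice carried the substitution on 1 or both alleles, and whether littermates served as WT, is not given in the sources used here. Each library came from a separate mouse as far as the labels say, so the p-values measure the spread between these mice.

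Mups belong to the lipocalins, proteins with a barrel-shaped pocket for small hydrophobic ligands. Their genes lie in 1 dense cluster that grew by repeated duplication, and most central copies are almost the same in sequence. In mouse liver they are known as male-biased genes. The pituitary releases growth hormone in sharp pulses in males, and each pulse activates STAT5B in hepatocytes. Androgens act on Mup genes largely through that pulsatile pattern, and thyroid hormone and glucocorticoids also raise Mup expression. Mup20, or darcin, is the male pheromone that attracts females. Mup7, Mup14, Mup1 and Mup2 are central, highly alike copies whose products bind and slowly release volatile ligands. Mup1 has also been linked to glucose and lipid metabolism. Mup3 and Mup21 are more diverged copies at an edge of the cluster.

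In the GENCODE M21 annotation of GRCm38 (the build that the submitters name as mm10), the cluster spans chromosome 4 from base 59956804 to 62150863, or 2.19 Mb. It holds 22 protein-coding Mup genes and 26 Mup pseudogenes, with 0 other protein-coding genes inside. All 7 members lie on the minus strand and code for protein. Mup7 is at chr4:60066469-60070475, Mup2 at chr4:60135932-60154289 and Mup1 at chr4:60498012-60501960. Mup14 is at chr4:61300023-61304000 and Mup20 at chr4:62050234-62054158. Mup3 is at chr4:62083476-62087342 and Mup21 at chr4:62147932-62150863. Coding sequences of Mup1, Mup2, Mup7 and Mup14 were 98.7% to 99.4% identical to each other. Mup20 was 90.1% to 90.8% identical to those 4. Mup3 and Mup21 were 94.7% identical to each other, and Mup3 was 82.3% identical to Mup7. A stretch of 60 coding bases, bases 244 to 303 of the Mup7 coding sequence, is printed because it shows which copies short reads can and cannot tell apart. Capitals mark bases that differ from Mup7.
Mup7: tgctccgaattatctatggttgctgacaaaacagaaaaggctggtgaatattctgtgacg
Mup14: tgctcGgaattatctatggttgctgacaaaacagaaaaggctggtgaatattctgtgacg
Mup1: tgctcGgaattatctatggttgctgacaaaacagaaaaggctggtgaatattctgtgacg
Mup2: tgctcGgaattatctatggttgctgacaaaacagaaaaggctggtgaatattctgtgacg
Mup20: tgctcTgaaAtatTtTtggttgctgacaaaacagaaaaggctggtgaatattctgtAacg
Mup3: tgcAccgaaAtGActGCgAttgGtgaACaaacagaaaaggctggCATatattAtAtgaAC
Mup21: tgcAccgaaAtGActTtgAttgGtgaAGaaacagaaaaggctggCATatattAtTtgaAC

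Mup14, Mup1 and Mup2 share all 60 bases here and differ from Mup7 at 1 base, Mup20 differs at 5, Mup21 at 16 and Mup3 at 17. A read pair that fits several copies equally well is not credited to any gene row but to the row of items aligned to more than 1 place. Of the 100-base words in the annotated transcripts, 97.8% occurred in no other gene for Mup3 and 95.5% for Mup21. The same share was 61.2% for Mup20, 44.3% for Mup1, 24.5% for Mup2, 24.3% for Mup14 and 23.9% for Mup7. The counts of Mup7, Mup14, Mup1 and Mup2 are therefore counts of the reads that fall on their few private bases. How far reads of 1 such copy could have been credited to another was not tested.

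The rows that name no gene bear on these values. Items aligned to more than 1 place made up 22.0% to 29.4% of all counted items in WT males (mean 24.7% ± 2.65, SD, n = 6). Y665F males had a lower mean share, 21.7% ± 1.03 (SD, n = 9). Y665H males 1 to 4 were at 23.5%, 30.1%, 27.4% and 24.1%. The female groups averaged 22.2% ± 1.30 with the WT allele, 21.0% ± 1.13 with Y665F and 24.3% ± 3.19 with Y665H (SD, n = 6 each). In WT males the 7 member rows together held counts equal to 3.05% ± 0.369 (SD, n = 6) of that row. The share moved in the same direction as the Mup counts between WT and Y665F males, and its part in the results was not tested.

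**Figure D1:**
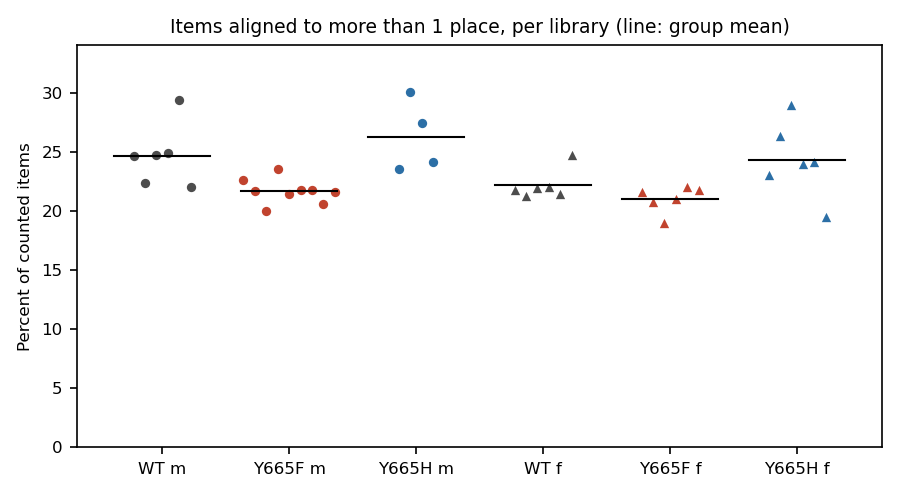
Percent of counted items aligned to more than 1 place (vertical axis), 1 symbol per library, by genotype and sex (m, males, circles; f, females, triangles), with the group mean as a line. The highest WT male reached 29.4% and the highest Y665H male 30.1%, while Y665F males averaged 21.7%.

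Gene counts per library ran from 49141951 to 73937726 in males and from 24388434 to 40864173 in females, so that depth and sex cannot be told apart. The 10 hepatocyte markers checked, among them the albumin gene, were detected in every group, and their summed level was 69810 to 145629 CPM in males and 105521 to 234949 in females. CPM here is a count relative to the library's total, scaled with TMM. The hepatocyte sum was higher in Y665F males (129847 to 145629 CPM) than in WT males (79813 to 88573 CPM), but its members did not share 1 direction: 4 were called higher and 3 lower, with a median log2 fold change of 0.13. In Y665F females the sum was 201433 to 234949 CPM against 110012 to 135869 in WT females, with 5 markers called higher and 3 lower (median 0.21). Of all genes, 27.2% were called higher and 25.3% lower in Y665F males, and 17.8% and 23.3% in Y665F females. Several, but not all, marker lists of other cell types moved too in these comparisons. Of 5 endothelial markers, 0 were called in Y665F males, and in Y665F females 1 was higher and 0 lower. Of 5 cholangiocyte markers, 1 was higher and 2 lower in Y665F males, and 0 were higher and 1 lower in Y665F females. In Y665F males 5 of 6 T and NK cell markers were called higher, with a sum of 4.95 to 11.8 CPM against 2.25 to 4.50 in WT males. All 6 macrophage markers were also called higher there, with a sum of 216 to 499 against 134 to 197 CPM. None of the listed T and NK cell or macrophage markers was called lower in Y665F males. In Y665F females 6 of 6 T and NK cell markers and 0 of 6 macrophage markers were called higher. All 4 B cell markers were called higher in Y665F males (median log2 fold change 1.44) and in Y665F females (1.11). All 4 neutrophil markers tested were called higher in Y665F males (median 2.60) and 0 in Y665F females. Of 5 stellate cell and fibroblast markers, 3 were called higher in Y665F males, and in Y665F females 0 were higher and 1 lower. Erythroid and pancreas lists went down in Y665F males, each with 1 marker abundant enough to be tested. The erythroid sum was 12.1 to 22.6 CPM in Y665F and 116 to 133 CPM in WT males (tested marker -2.76, called lower). It was 19.6 to 27.0 CPM in WT females, and the tested marker was called higher in WT males than in WT females (2.45). In Y665F females that marker was called higher than in WT females (0.35). The 3 globin rows listed had 0 counts in 36 or 37 libraries. The pancreas sum was 4.81 to 9.15 CPM against 15.2 to 24.0 CPM (tested marker -1.60, called lower), and in Y665F females its tested marker was also called lower (-1.83). The part of these shifts in the Mup results was not tested. The listed kidney markers summed to at most 0.113 CPM in any library. Among them Kap was at 0 in 36 of 37 libraries, Slc12a1 in 34, Umod in 25 and Slc34a1 in 18. In bulk liver, fewer hepatocytes and less Mup RNA per hepatocyte cannot be told apart. Y665H males 2 and 3 stood apart, as given with the Y665H results.

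In WT livers, all 7 members were higher in males than in females, from 3.63-fold for Mup3 to 741-fold for Mup7. Of all 15152 genes tested, 23% were called higher in WT males (edgeR's quasi-likelihood test, adjusted p under 0.05), and the groups did not overlap in CPM for 29.8%. No member's male and female values overlapped. The median log2 difference was 5.74 over the members and -0.021 over all tested genes. Under the other settings listed with the processing, the log2 difference ran from 9.40 to 11.39 for Mup7 and from 1.74 to 2.36 for Mup3.

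The central copies Mup7 and Mup14 had the widest sex differences, whereas their close relative Mup2 had a narrower one than every member but Mup3. Mup7 was at 784 CPM in the lowest WT male, 1356 in the median and 2171 in the highest, against 0.970, 2.05 and 3.38 CPM in WT females. Its log2 difference was 9.53 (SE 0.60, adjusted p 5.88e-15). Mup14 was at 83.6, 124 and 209 CPM in WT males and 0.114, 0.377 and 0.470 in WT females, a log2 difference of 8.76 (SE 0.50, adjusted p 7.38e-15). WT males held 9.89 ± 0.833 (SD, n = 6) Mup14 counts per 100 Mup7 counts. Mup1 (7.19, 10.0 and 13.8 CPM in WT males, 0.123, 0.166 and 0.354 in WT females) and Mup2 (1.52, 3.37 and 4.90 against 0.202, 0.555 and 0.706) were scarce in both sexes. Their log2 differences were 5.74 (SE 0.34, adjusted p 1.64e-15) and 2.61 (SE 0.39, adjusted p 1.26e-06).

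Mup20 was at 2651, 3396 and 4653 CPM in the lowest, median and highest WT male and at 32.4, 37.5 and 52.5 CPM in WT females. The darcin gene was therefore a high-level transcript in males and a modest one in females, with a log2 difference of 6.41 (SE 0.52, adjusted p 4.15e-12). Mup3 was at 6942, 7121 and 9166 CPM in WT males and 1868, 2002 and 2479 in WT females, a log2 difference of 1.86 (SE 0.16, adjusted p 3.06e-11). Mup3 was the member with the narrowest sex difference and the highest level in both sexes. Mup21 went from 2.00, 2.87 and 4.05 CPM in WT females to 98.2, 136 and 168 in WT males, a log2 difference of 5.53 (SE 0.43, adjusted p 1.09e-12).

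Levels were compared between members as CPM per kilobase of annotated exon. In WT males Mup3 came first (7095 ± 843, SD, n = 6), then Mup20 (3745 ± 787, SD, n = 6) and Mup7 (1386 ± 580, SD, n = 6), and none of these 3 ranges overlapped. Mup21 (198 ± 41.3, SD, n = 6) and Mup14 (101 ± 38.7, SD, n = 6) followed with overlapping ranges, then Mup1 (6.66 ± 1.69, SD, n = 6) and Mup2 (2.39 ± 0.965, SD, n = 6). In WT females the order by CPM per kilobase was Mup3 (1954 ± 207, SD, n = 6), Mup20 (43.9 ± 9.36, SD, n = 6), Mup21 (4.32 ± 1.01, SD, n = 6) and Mup7 (1.91 ± 0.851, SD, n = 6). Mup21 and Mup7 overlapped there, as did Mup2, Mup14 and Mup1, none of which was above 0.529 CPM per kilobase. These levels count private reads only, and the private share differs between members as given above.

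**Figure D2:**
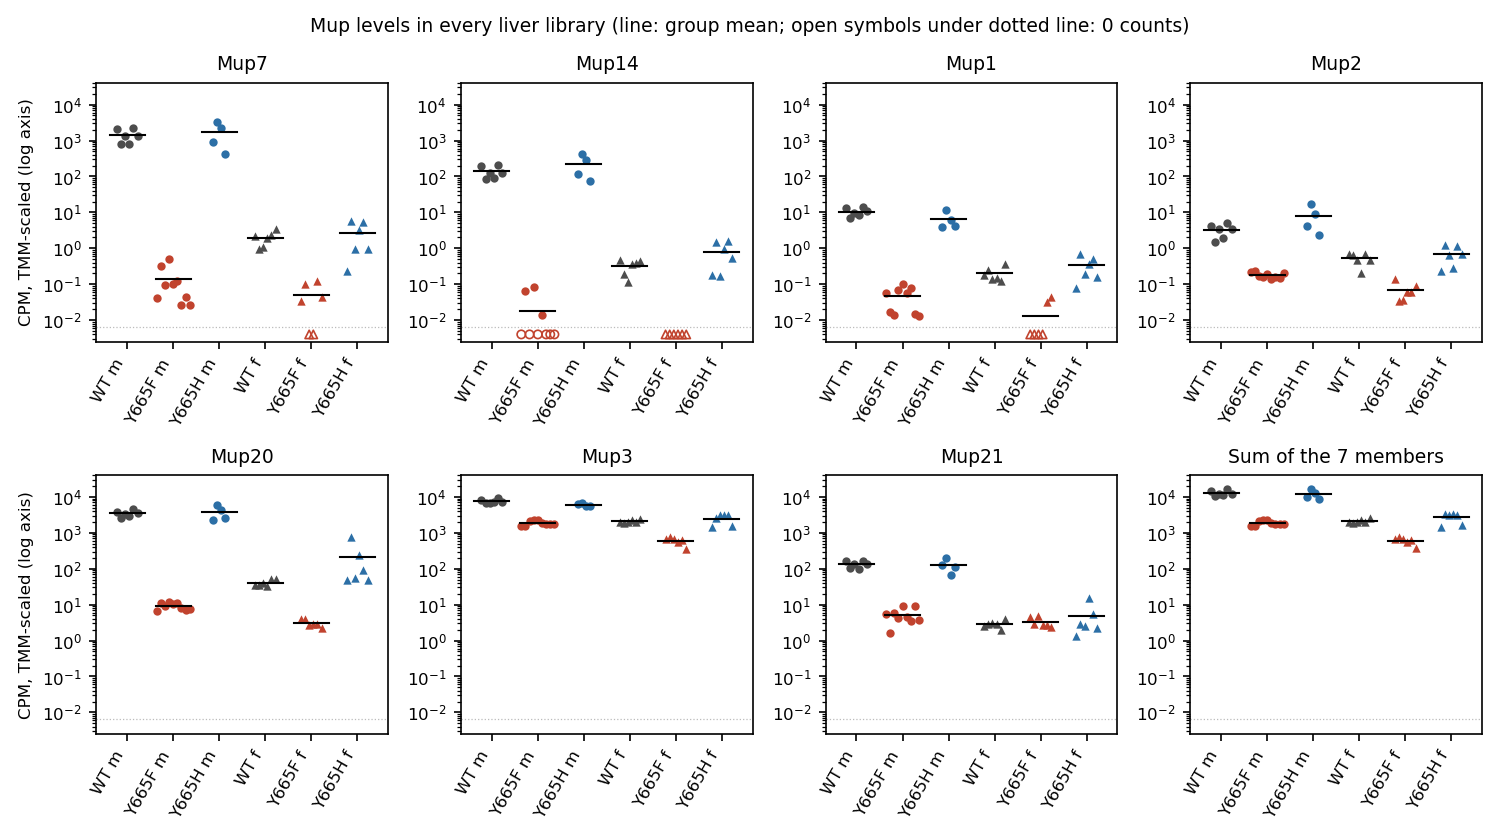
CPM of each member and of their sum (vertical log axis) in every library by genotype and sex (m, males, circles; f, females, triangles), with a line at the group mean and open symbols for libraries with 0 counts. WT and Y665H males lie at the top of every panel, Y665F males lie below them in each, and Mup14 had 0 counts in all 6 Y665F females.

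In Y665F males, all 7 members were lower than in WT males, and no member's values overlapped between the groups. Among all tested genes 25.3% were called lower in this comparison and 26.4% did not overlap. The falls were uneven: the fitted fold decrease was 4.04 for Mup3, 17.4 for Mup2, 25.5 for Mup21, 216 for Mup1, 380 for Mup20, 6922 for Mup14 and 10211 for Mup7. The median log2 fold change was -7.76 over the members and -0.0076 over all genes tested. The Y665H comparisons use the same WT mice.

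Mup7 had 86 counts in all 9 Y665F males together, against 539407 in 6 WT males. The lowest, median and highest Y665F males were at 0.0264, 0.0964 and 0.494 CPM, under every WT female too. Mup14 had 11 counts in total, with 6 of 9 Y665F males at 0. For Mup7 the pooled counts were 10293-fold lower (exact 95% counting interval 8334 to 12869), and for Mup14 7800-fold lower (4359 to 15627). These intervals cover counting error only. The fitted log2 fold change of Mup14 was -12.76, and without Y665F male 4 it was -13.55.

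Mup1 was at 0.0132, 0.0554 and 0.0983 CPM in the lowest, median and highest Y665F male, a log2 fold change of -7.76 (SE 0.32, adjusted p 1.44e-20). Mup2 was at 0.138, 0.165 and 0.232 CPM, and its log2 fold change was -4.12 (SE 0.35, adjusted p 3.84e-12). The fitted fall of Mup2 was smaller than those of its close relatives Mup1, Mup7 and Mup14, and the difference between genes was not tested. Mup20 was at 6.60, 9.07 and 11.8 CPM in Y665F males, a log2 fold change of -8.57 (SE 0.48, adjusted p 6.31e-17). Those values were also below all WT females, in which the lowest was 32.4 CPM.

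The edge genes fell least in Y665F males together with Mup2. Mup3 was at 1530, 1772 and 2326 CPM in Y665F males, a log2 fold change of -2.01 (SE 0.14, adjusted p 6.12e-14). These values overlapped those of WT females (1868 to 2479 CPM). Mup21 was at 1.67, 4.51 and 9.21 CPM, a log2 fold change of -4.67 (SE 0.33, adjusted p 4.34e-14), and also overlapped WT females (2.00 to 4.05 CPM). Y665F males were not tested against WT females.

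The summed level of the 7 members was 10576, 12091 and 16386 CPM in WT males and 1543, 1783 and 2343 CPM in Y665F males, with no overlap. The group means stood 6.75-fold apart. The sum counts private reads only, and 97.8% of 100-base words were private for Mup3 against 23.9% for Mup7. It is therefore weighted to Mup3, and neither the sum nor the shares below measure all Mup RNA. Of all gene counts, the sum held 1.36% ± 0.254 (SD, n = 6) for WT males but 0.195% ± 0.0298 (SD, n = 9) for Y665F males. The make-up of the sum also differed. Of the counts over all 20 Mup rows, WT males had 59.7% ± 4.24 (SD, n = 6) in Mup3, and Y665F males had 99.2% ± 0.113 (SD, n = 9). Mup20 gave 27.0% ± 1.34 and 0.486% ± 0.0959, and Mup7 10.8% ± 2.88 and 0.00722% ± 0.00780, in the same groups.

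**Figure D3:**
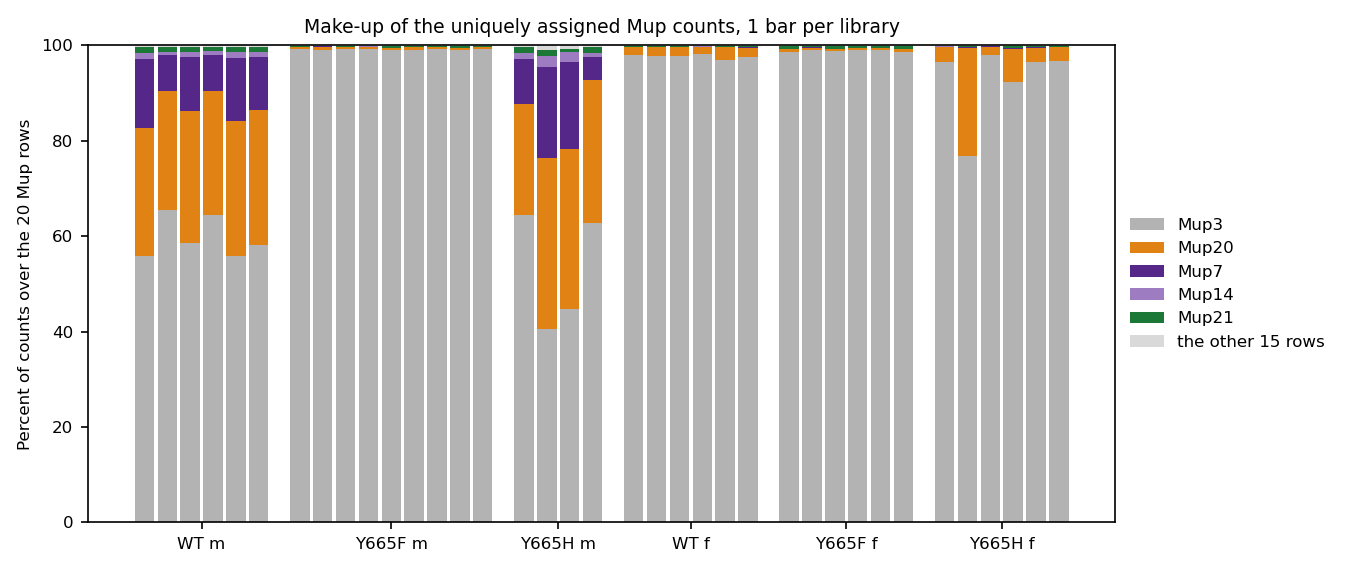
Percent of the counts over the 20 Mup rows (vertical axis) that each of 5 members and the remaining rows held, 1 bar per library, by genotype and sex (m, males; f, females). Mup3 held 99.2% on average in Y665F males against 59.7% in WT males, and Mup20 held 22.7% in Y665H female 2.

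In Y665F females, 6 of 7 members were lower than in WT females, with no overlap, and Mup21 was not called. Among all tested genes 23.3% were called lower and 19.9% did not overlap. The median log2 fold change was -3.71 over the members and -0.019 over all genes. When only the WT and Y665F females were fitted, Mup1, Mup2 and Mup14 did not pass the low-count filter, and 3 of the 4 members tested were called lower (Mup3, Mup7 and Mup20).

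Mup3, the main member in female liver, was at 363, 637 and 746 CPM in the lowest, median and highest Y665F female. It fell by 1.79 on the log2 scale (SE 0.16, adjusted p 5.15e-11). Mup20 was at 2.23, 2.83 and 4.08 CPM, a log2 fold change of -3.71 (SE 0.49, adjusted p 1.80e-07). Both genes were thus below every WT female.

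Mup7 was at 0, 0.0398 and 0.125 CPM in Y665F females, a log2 fold change of -5.15 (SE 1.07, adjusted p 0.000211). Mup14 had 0 counts in all 6 Y665F females and 62 counts in WT females, at least 18.3-fold lower with a floor of 3 counts over the group. Its call (adjusted p 0.0259) was lost with limma-voom (adjusted p 0.0816) and with the share of counted items in no annotated gene as a covariate (0.0504). Mup1 had 2 counts in all against 38, 16.8-fold lower (counting interval 4.34 to 144, adjusted p 0.00259). Mup2 was at 0.0333, 0.0612 and 0.140 CPM, a log2 fold change of -2.86 (SE 0.72, adjusted p 0.00163), and was not called with limma-voom (adjusted p 0.10).

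Mup21 did not follow. It was at 2.37, 2.88 and 4.80 CPM in Y665F females and 2.00, 2.87 and 4.05 in WT females. The log2 difference was 0.22 (95% interval -0.69 to 1.12, adjusted p 0.723), and the groups overlapped.

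The Y665F effect differed between the sexes for Mup20 and Mup21. For Mup20 the log2 fold change in males was lower than that in females by a difference of -4.86 (SE 0.62, adjusted p 3.10e-07), and for Mup21 by -4.89 (SE 0.55, adjusted p 2.16e-08). Of all tested genes 11.5% were called lower for this difference. For Mup3 the difference was -0.22 (SE 0.22, adjusted p 0.475), so that a sex difference in its relative fall was not detectable. Mup7 missed the threshold (-8.17, SE 3.20, adjusted p 0.0533). For Mup14, at 0 in Y665F females, this fit gave no usable estimate. DESeq2 and limma-voom each called 5 members, adding Mup1, Mup7 and Mup14.

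**Figure D4:**
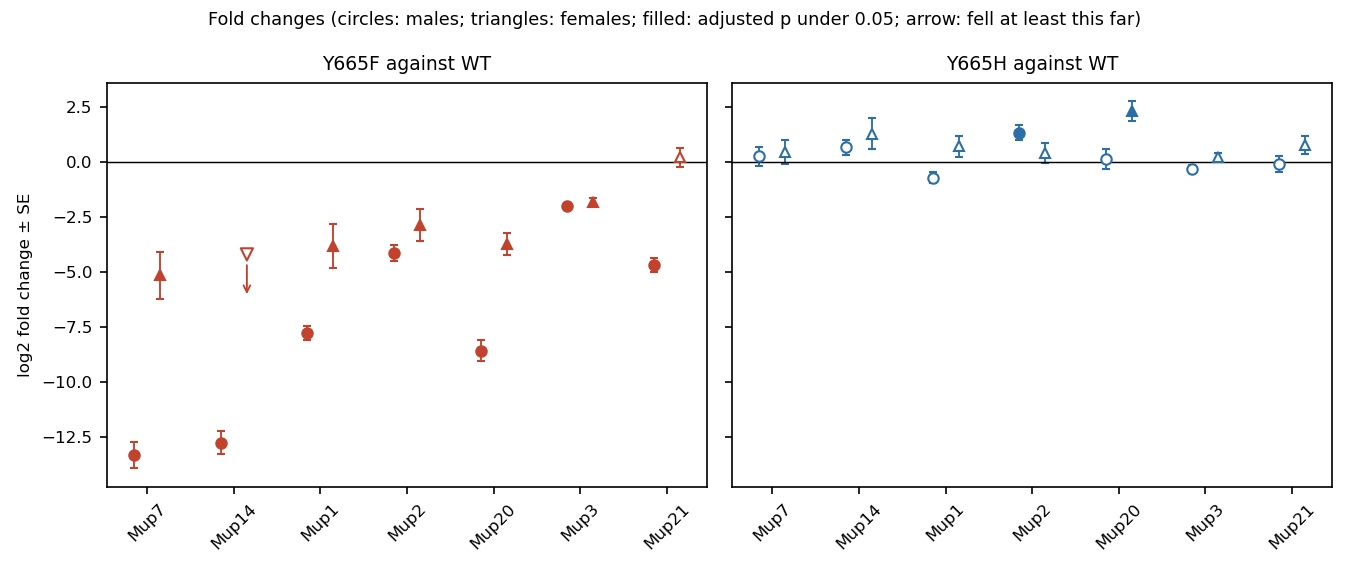
Fitted log2 fold change with its SE (vertical axis) of each member for Y665F (left) and Y665H (right) against WT, circles for males and triangles for females, filled where called. Mup14 in Y665F females is drawn at its bound, an 18.3-fold fall, with an arrow. Mup7 and Mup14 lie lowest in Y665F males, and Mup21 in Y665F females lies at 0.22.

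Between Y665F males and females, 2 members were called higher in males: Mup3 (log2 difference 1.64, SE 0.15, adjusted p 1.32e-10) and Mup20 (1.55, SE 0.45, adjusted p 0.00495). In that comparison 22.8% of all genes were called higher in males. Neither gene's values overlapped between the sexes, which 18% of all genes share. Mup21 (0.64, adjusted p 0.173), Mup2 (1.35, adjusted p 0.152), Mup1 (1.80, adjusted p 0.227), Mup7 (1.37, adjusted p 0.512) and Mup14 (3.00, SE 4.04, adjusted p 0.583) were not called and overlapped. Mup2 was called higher with DESeq2 (adjusted p 0.0377) and Mup21 with the covariate for counted items in no annotated gene (adjusted p 0.0408). Mup20 was not called with limma-voom (1.54, adjusted p 0.0692).

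In Y665H males, Mup2 alone was called higher than in WT males and no member was called lower. Of all genes, 5.22% were called higher and 3.18% lower. The median log2 fold change of the members was 0.13, against 0.0062 over all genes. The 4 Y665H males differed widely among themselves, and replicates 2 and 3 were high for several members.

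Mup7 was at 920, 3239, 2289 and 414 CPM in Y665H males 1 to 4. Replicates 2 and 3 exceeded every WT male and replicate 4 was under every WT male, so the log2 fold change of 0.26 (95% interval -0.65 to 1.17, adjusted p 0.772) covers a wide spread. Mup14 had the same shape, at 118, 409, 289 and 73.2 CPM (log2 fold change 0.68, SE 0.33, adjusted p 0.204). Mup20 was at 2272, 6114, 4224 and 2594 CPM (0.13, SE 0.46, adjusted p 0.895). Without replicates 2 and 3, the log2 fold changes were -1.11 for Mup7, -0.55 for Mup14 and -0.52 for Mup20, with adjusted p 0.325, 0.478 and 0.728.

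Mup2 was at 4.09, 16.9, 9.14 and 2.33 CPM in Y665H males, a log2 fold change of 1.35 (SE 0.34, adjusted p 0.0116). Replicates 2 and 3 were above all WT males, and replicates 1 and 4 lay within the WT range. The call was lost without replicate 2 (0.69, adjusted p 0.24), and without replicates 2 and 3 the value was 0.0011 (adjusted p 1). Mup1 was at 3.92, 11.6, 6.13 and 4.08 CPM, a log2 fold change of -0.71 (SE 0.26, adjusted p 0.0791). Mup1 was called lower without replicate 2 (-1.17, adjusted p 0.00622) and without replicates 2 and 3 (-1.41, adjusted p 0.0101). Calls for both copies also turned with all mice kept. Mup1 was called lower with limma-voom (-0.81, adjusted p 0.00633). With the share of counted items in no annotated gene as a covariate, Mup1 was called lower (-1.79, adjusted p 0.00604) and Mup2 was not called (0.89, adjusted p 0.319). With only the WT and Y665H males fitted, Mup2 was not called either (1.36, adjusted p 0.0739).

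Mup3 was at 6253, 6905, 5649 and 5399 CPM in Y665H males, all below the lowest WT male at 6942. This lack of overlap, which 12.5% of all tested genes showed, did not come with a call (log2 fold change -0.32, SE 0.18, adjusted p 0.275). Mup21 was at 130, 198, 68.1 and 111 CPM and overlapped WT males (-0.08, SE 0.37, adjusted p 0.916). The summed level was 9701, 16893, 12535 and 8598 CPM, and the log2 ratio of the group mean to that of WT males was -0.10, or -0.48 without replicates 2 and 3.

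Of 9 ratios between Mup rows that were looked at, 4 did not overlap between Y665H and WT males and 5 did. The pair described here is among the former. There were 3.33, 2.84, 2.12 and 5.57 Mup1 counts per 100 Mup14 counts in replicates 1 to 4, all below the 6.58 to 9.43 of WT males. Mup2 counts per 100 Mup7 counts were 0.399 to 0.562 in Y665H males and 0.193 to 0.251 in WT males. These ratios were chosen after their values were seen and were not tested. The other ratios without overlap were Mup14 and Mup15 per 100 Mup7 counts.

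Outside the members, the rows Mup9 and Mup15, also chosen after their values were seen, marked replicates 2 and 3. Mup9 was at 0.764, 87.8, 41.3 and 1.04 CPM in Y665H males 1 to 4, against 0.279 to 2.74 CPM in WT males. Mup15 was at 2.53, 31.4, 21.3 and 1.75 CPM, against 1.05 to 5.00. Replicates 1 and 4 lay within the WT range for both rows. Replicates 2 and 3 also had the highest summed level of 20 acute phase genes, 34671 and 33561 CPM, against 20399 and 18629 in replicates 1 and 4 and 18669 to 19621 in WT males. Their hepatocyte marker sums were 71494 and 69810 CPM, below every WT male (79813 to 88573), against 91786 and 88037 in replicates 1 and 4. They had the highest non-unique shares as well, as given above. The part of these quantities in the Mup values was not tested.

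**Figure D5:**
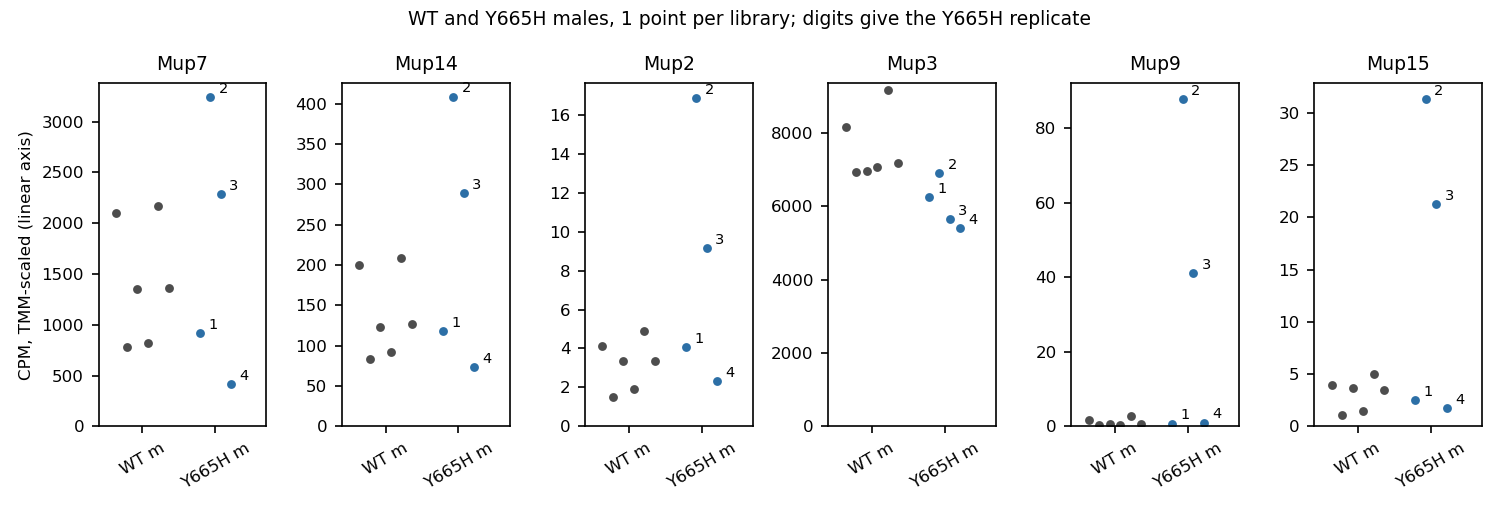
CPM (vertical linear axis from 0, scaled per panel) of 4 members and of the rows Mup9 and Mup15 in WT and Y665H males, 1 point per library, with the replicate number beside each Y665H point. Replicates 2 and 3 stand at 87.8 and 41.3 CPM for Mup9, while replicates 1 and 4 lie within the WT range, and all 4 Y665H males lie below WT males for Mup3.

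In Y665H females, Mup20 was the only member called, and it was higher than in WT females. Of all genes, 4.4% were called higher and 1.59% did not overlap. Mup20 was at 47.4, 73.8 and 754 CPM in the lowest, median and highest Y665H female, a log2 fold change of 2.33 (SE 0.44, adjusted p 0.00229). Values of 4 of 6 Y665H females were above every WT female, and replicates 2 (754 CPM) and 4 (233 CPM) were the highest. Without replicate 2 the log2 fold change was 1.23 (adjusted p 0.018). Mup20 was not called when only WT and Y665H females were fitted (2.30, adjusted p 0.0935).

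The other members overlapped between Y665H and WT females. Mup3 was at 1422, 2807 and 3127 CPM in Y665H females (log2 fold change 0.25, 95% interval -0.08 to 0.57, adjusted p 0.342). Mup7 was at 0.239, 2.10 and 5.62 CPM (0.46, SE 0.53, adjusted p 0.627) and Mup14 at 0.169, 0.736 and 1.58 CPM (1.29, SE 0.71, adjusted p 0.259). Mup21 was at 1.38, 2.73 and 15.3 CPM (0.78, SE 0.42, adjusted p 0.252), and without replicate 4, at 15.3 CPM, its value was -0.018. Mup1 was at 0.0796, 0.282 and 0.712 CPM (0.71, adjusted p 0.373) and Mup2 at 0.239, 0.662 and 1.27 CPM (0.41, adjusted p 0.614). The summed level was 1474, 3175 and 3381 CPM, and the log2 ratio of the group mean to that of WT females was 0.34. The median log2 fold change was 0.71 over the members and 0.0047 over all genes.

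The Y665H effect in males minus that in females was called for Mup20 (-2.20, SE 0.64, adjusted p 0.0365), with 2.3% of all genes called lower. It was lost when 1 library was left out in 8 of 22 such fits (WT males 1 and 5, Y665H males 1, 3 and 4, WT females 1 and 4, Y665H female 2), with adjusted p from 0.052 to 0.131. Without Y665H female 2 the value was -1.10. The call was also lost with all libraries kept: with limma-voom (-1.48, adjusted p 0.199), with only the compared groups fitted (-2.20, adjusted p 0.105) and with the replicate block (-1.96, adjusted p 0.0639). Without Y665H males 2 and 3 the value was -2.84 (adjusted p 0.0505). Within Y665H livers, all 7 members were higher in males, where 14.2% of genes were called higher and 13.7% did not overlap. Mup7 differed by 9.34 (SE 0.60, adjusted p 2.09e-14) and Mup3 by 1.29 (SE 0.18, adjusted p 1.13e-06) on the log2 scale. Under the other settings these values ran from 7.99 to 10.63 for Mup7 and from 1.24 to 1.64 for Mup3. The members' median was 4.32, against -0.016 over all genes.

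The substitutions were also set against each other directly. In males all 7 members were higher with Y665H than with Y665F, and 20.5% of all genes were called higher while 24% did not overlap. The log2 differences ran from 1.69 (SE 0.16, adjusted p 8.48e-11) for Mup3 to 13.58 (SE 0.60, adjusted p 3.33e-19) for Mup7. Under the other settings, including the fit without Y665H males 2 and 3, they were 1.58 to 1.74 for Mup3 and 12.23 to 13.76 for Mup7. In females 6 of 7 were higher, with 30.5% of all genes called higher and 24.3% not overlapping. The values there were 6.04 for Mup20 (SE 0.53, adjusted p 1.36e-11) and 2.04 for Mup3 (SE 0.17, adjusted p 1.69e-12). Without Y665H female 2 the value for Mup20 was 4.94 (adjusted p 8.32e-14). Mup21 was not called in females (0.56, SE 0.42, adjusted p 0.261). Its value was -0.24 without Y665H female 4 and -0.26 with the covariate for counted items in no annotated gene, both uncalled. With only the Y665H and Y665F females fitted, Mup1, Mup2, Mup7 and Mup14 did not pass the low-count filter, and 2 of the 3 members tested were called (Mup3 and Mup20).

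All 7 members were lower in Y665F males, by very different amounts, and the stretches just upstream of their RefSeq gene starts were compared. RefSeq (GRCm38.p6) gave a promoter window for 5 of 7 members: Mup7, Mup14, Mup2, Mup3 and Mup21. An aligned block of 114 or 115 bases on the minus strand, ending at most 134 bases before the RefSeq gene start, is printed to show how alike these promoters are. Capitals mark bases that differ from Mup7. The blocks lie at chr4:60070476-60070590 (Mup7), chr4:61304082-61304196 (Mup14), chr4:60139991-60140105 (Mup2), chr4:62087399-62087512 (Mup3) and chr4:62150917-62151030 (Mup21). RefSeq and GENCODE place the start of Mup2 differently, and its block lies inside the longer Mup2 gene that GENCODE annotates.
Mup7: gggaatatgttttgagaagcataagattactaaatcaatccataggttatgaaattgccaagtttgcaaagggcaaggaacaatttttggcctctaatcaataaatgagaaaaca
Mup14: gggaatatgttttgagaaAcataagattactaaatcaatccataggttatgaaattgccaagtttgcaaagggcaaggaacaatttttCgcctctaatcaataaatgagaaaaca
Mup2: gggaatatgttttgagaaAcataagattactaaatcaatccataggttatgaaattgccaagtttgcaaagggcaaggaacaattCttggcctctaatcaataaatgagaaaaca
Mup3: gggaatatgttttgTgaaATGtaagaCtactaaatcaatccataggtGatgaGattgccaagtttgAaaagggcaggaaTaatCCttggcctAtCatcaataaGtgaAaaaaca
Mup21: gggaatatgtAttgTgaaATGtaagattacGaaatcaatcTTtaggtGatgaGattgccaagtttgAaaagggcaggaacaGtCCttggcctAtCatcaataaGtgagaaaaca

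Mup14 and Mup2 were 98.3% identical to Mup7 over this block, Mup3 86.1% and Mup21 84.3%. STAT5 binds palindromes of the form TTCNNNGAA. On either strand this motif was in 0 of the 5 member windows (250 bases before to 50 after the start) and in 8.3% of 32851 RefSeq promoters. The 1 base longer form TTCNNNNGAA was in Mup7 and Mup14, in both as TTCTCTTGAA, and in 6.95% of all promoters. It lay 141 bases before the start of Mup7 and 224 before that of Mup14, upstream of the printed block in both. The Mup2 block of 115 bases ends 134 bases before its start. The stretch of Mup2 that would match these sites therefore lies beyond the 250 bases searched, and whether Mup2 has the motif there was not looked at. A match in these windows is a description of the letters only.

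The genes whose 6 group means were most like a member's, by the root mean square (RMS) difference of centred log2 CPM, were as follows. Several of them were at or near 0 in some groups, where the prior count sets the value. For Mup14 the nearest was Cyp4a12a, a fatty acid hydroxylase (RMS 0.74), followed by Cyp4a12b (0.82) and the steroid dehydrogenase Hsd3b5 (1.69). The same 3 genes were nearest to Mup7, at 1.09, 1.32 and 2.13. For Mup20 the nearest were the fatty acid elongase Elovl3 (0.70), the row Mup12 (0.97) and Hsd3b5 (0.97). Elovl3 averaged 182 ± 48.7 CPM (SD, n = 6) in WT males, against 1.23 ± 0.364 CPM (SD, n = 9) with Y665F. For Mup21 they were Obp2a, another lipocalin (0.38), the transcription factor Pitx3 (0.40) and the complement gene C6 (0.74). Obp2a averaged 0 CPM in 3 of the 6 groups, so its likeness rests in part on the prior count of 2 that stands in for a count of 0. C6 averaged 23.4 ± 3.24 CPM (SD, n = 6) in WT females, against 16.7 ± 0.920 CPM (SD, n = 6) with Y665F. For Mup3 they included Olfm3 (0.28) and Zfp872 (0.31), both at low levels, for example Zfp872 at 2.05 ± 0.919 CPM (SD, n = 6) in WT males. Mup1 was nearest to Cyp2c53-ps (0.49), Cml5 (0.57) and Scara5 (0.62), and Mup2 to the row Mup8 (0.44), Capn8 (0.47) and Hcrtr2 (0.47). The sum was nearest to Olfm3 (0.39), Olig1 (0.40) and Slc15a5 (0.41).

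Genes of the growth hormone and STAT5 axis were read from the same fit. Of all genes, 27.2% were called higher and 25.3% lower in Y665F males, and 17.8% and 23.3% in Y665F females. In Y665H males the shares were 5.22% and 3.18%, and in Y665H females 4.4% and 3.1%. In Y665F males 10 of 15 were called higher and 2 lower, with a list median of 0.41 against -0.0076 over all genes. Cux2, a female-biased repressor of male genes, rose by 7.13 (SE 0.42, adjusted p 3.31e-16) and the feedback inhibitor Socs2 by 3.14 (SE 0.35, adjusted p 1.88e-09) on the log2 scale. Bcl6, a male-biased repressor, fell by 2.20 (SE 0.25, adjusted p 3.49e-09). In Y665F females 3 were higher and 0 lower, among them the growth hormone receptor gene Ghr (1.96, SE 0.14, adjusted p 5.85e-14) and Cux2 (1.71, SE 0.32, adjusted p 4.24e-05). In Y665H males 1 was higher (Ptpn1, 0.29, adjusted p 0.00468) and 1 lower (Igfals, -0.32, adjusted p 0.0426). In Y665H females 0 were higher and 2 lower (Cux2, -1.30, adjusted p 0.0119, and Igfals, -0.58, adjusted p 0.000367).

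Other regulators of Mup genes, which are nuclear receptors and hepatocyte transcription factors, made up another list. Of 16, 0 were higher and 4 lower in Y665F males, 1 higher and 7 lower in Y665F females, 0 higher and 1 lower in Y665H males and 0 in either direction in Y665H females. The 4 of 16 lower in Y665F males is near the 25.3% of all genes called lower there, and the 7 of 16 in Y665F females stands against 23.3%. The pioneer factor Foxa1 was lower with Y665F, at a log2 fold change of -0.83 in males (SE 0.16, adjusted p 5.49e-05) and -1.22 in females (SE 0.19, adjusted p 3.28e-06). Zhx2, known as a regulator of Mup genes, was also lower, at -0.44 in males (SE 0.052, adjusted p 1.06e-08) and -0.29 in females (SE 0.060, adjusted p 0.000152). In Y665H males only Thrb, a thyroid hormone receptor, was called in this list (-0.29, adjusted p 0.0103).

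Other lipocalins did not share 1 direction. The shares of all genes called higher and lower were 27.2% and 25.3% in Y665F males, 17.8% and 23.3% in Y665F females and 5.22% and 3.18% in Y665H males. Of 10 lipocalins tested, 4 were higher and 4 lower in Y665F males, 1 higher and 2 lower in Y665F females, 2 higher and 1 lower in Y665H males, and 0 were called in Y665H females. Lcn2, an iron-siderophore binder of the acute phase, rose by 4.64 with Y665F (SE 0.77, adjusted p 5.22e-06) and by 4.57 with Y665H (SE 0.82, adjusted p 0.000534) in males. Obp2a was at 0.921 to 2.31 CPM in WT males and had 0 counts in all 9 Y665F males and all 6 WT females. Acute phase genes were higher for 13 of 20 and lower for 1 in Y665F males, 4 and 1 in Y665F females, 9 and 0 in Y665H males and 0 and 0 in Y665H females. The counts of both lists in Y665F females lie near or under these shares. In Y665H males the summed acute phase level was 34671 and 33561 CPM in replicates 2 and 3. Replicates 1 and 4 were at 20399 and 18629 CPM, and WT males at 18669 to 19621 CPM.

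The protein-coding genes that flank the cluster were read as neighbours, 5 on each side. Of 9 tested, 3 were higher and 1 lower in Y665F males and again 3 and 1 in Y665F females, with 0 and 0 in Y665H males and 0 and 2 in Y665H females. The 3 of 9 higher in Y665F males is near the 27.2% of all genes called higher there, and 25.3% were called lower. In Y665F females 17.8% of all genes were called higher and 23.3% lower, and in Y665H females 3.1% were called lower. Their median log2 fold change in Y665F males was 0.01, against -7.76 for the members. In the comparisons with WT, the called neighbours changed by no more than 0.63 on the log2 scale in size. Snx30 rose by 0.36 in Y665F males (adjusted p 3.43e-05) and by 0.63 in Y665F females (adjusted p 3.18e-08). Zfp37 fell by 0.62 in Y665F males (adjusted p 0.00364).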

How the data were processed

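Total RNA from frozen liver was depleted of ribosomal RNA and sequenced in pairs from stranded libraries, per the labels' protocols. The protocols name kits of more than 1 maker, and which library was made with which, the strand setting, the annotation and the read length are not given in the sources used here. The submitters' processing notes name mm10, FastQC 0.11.9, Trimmomatic 0.36, STAR, SAMtools 1.9, Picard 2.9.2 and HTSeq 0.9.1. The deposited files give whole-number read counts by gene symbol, with different totals per library and so without normalization by the authors. The 5 rows naming no gene (32.4% to 49.9% of counted items) entered neither library sizes nor tests.

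The analysis used edgeR 4.0.16 under R 4.3.3. The low-count filter filterByExpr (minimum count 10, minimum total 15) kept 15152 genes, all 7 members included, and left out 9269. The 37 libraries entered 1 quasi-likelihood fit (glmQLFit, glmQLFTest) with a mean per group and TMM scaling. Benjamini-Hochberg adjustment ran over all tested genes within each comparison, with calls at an adjusted p under 0.05. Every adjusted p comes from this fit unless another tool is named. The SE is the fold change's size over the root of its F value. Sums over members have no test.

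Counting intervals are exact (95%), and 3 counts over the group serve as floor where all are 0. Both cover counting error only. The alternatives were other scalings, no filter, DESeq2 1.42.0, limma-voom (limma 3.58.1), only the compared groups, a replicate block, a covariate and leaving out each library. The members, lists and tests were chosen with earlier results of these data known. The rule for names took all members, for each member and the sum the 3 genes nearest in group means (prior count 2), and 2 to 4 called genes per list by fold size. Not every gene the rule names is reported here. No libraries were near-duplicates (at most 2.94% of genes had equal counts in a pair of 1 group). The fit was tested on simulated data. Positions and unique words come from GENCODE M21 and promoters from RefSeq GRCm38.p6.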

Additional observations from a re-analysis of the deposited data

Results flagged for a closer look

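In Y665H females, Mup20 in replicate 2 was at 754 CPM, and its gap to the next library took 0.737 of the group's range, above Dixon's critical value for 6 samples. Mup21 in replicate 4 of the same group was at 15.3 CPM, with a gap of 0.718 of the range. Both came from 47 sets of values looked at in this way, and chance flags about 1 in 20. The summed acute phase genes were at 27409 CPM in replicate 2 and 26990 CPM in replicate 4, the highest of this group, and their part was not tested.

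The substitution's effect differed between males and females for Mup20 with Y665F (a log2 difference of -4.86, adjusted p 3.10e-07, edgeR), for Mup21 with Y665F (-4.89, adjusted p 2.16e-08, edgeR) and for Mup20 with Y665H (-2.20, adjusted p 0.0365, edgeR). The last of these calls was lost in 8 of 22 fits that left out 1 library (-1.10 without Y665H female 2, adjusted p 0.131). It was also lost with limma-voom (adjusted p 0.199), with only the compared groups fitted (adjusted p 0.105), with the replicate block (adjusted p 0.0639) and without Y665H males 2 and 3 (adjusted p 0.0505). For Mup20 and Mup21 with Y665F, all 9 Y665F males lay below all WT males. In females, all 6 Y665F values of Mup20 lay below WT, and those of Mup21 overlapped WT.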

How the results depend on the processing

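Of 1829 values of single members under alternatives, 1763 kept their direction and their side of the threshold, 21 lost and 21 gained a call, and 24 changed sign, none of them a called value. The 7 lower members in Y665F males, and the 7 higher members in males in WT and Y665H and with Y665H against Y665F in males, were found under every alternative run. With limma-voom, the Y665F effect by sex had 5 called members against 2, Y665F against WT in females 4 against 6, Y665H against WT in males 2 against 1, the sexes in Y665F 1 against 2 and the Y665H effect by sex 0 against 1. DESeq2 gave 5 for the Y665F effect by sex and 3 for the sexes in Y665F. Without TMM, and with all counted items as library size, the Y665F effect by sex had 3. With only the compared groups fitted, the Y665F effect by sex had 3, Y665H against WT 0 in males and 0 in females and the Y665H effect by sex 0. Y665F against WT in females had 3 against 6 and Y665H against Y665F in females 2 against 6, where 3 and 4 members were not tested because the low-count filter left them out. No tested member lost its call in either. The covariate for the share in no annotated gene gave 3 for the Y665H effect by sex, 3 for the Y665F effect by sex, 3 for the sexes in Y665F and 5 for Y665F against WT in females. Leaving out 1 library, the Y665F effect by sex had 2 to 3 and the Y665H effect by sex 0 to 2. The log2 ratio of the groups' mean sums for Y665H against WT in males ran from -0.31 to 0.030 when 1 library was left out. Without both Y665H males 2 and 3, chosen after seeing the data, it was -0.48, that of Y665H against Y665F in males 2.27 and the Y665H effect by sex -0.82. With all counted items as library size, the sums' Y665F effect by sex was -0.68 against -0.95.

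Values that changed sign were all uncalled. For Mup7, Y665H against WT in males was -0.032 (limma-voom), -0.96 (covariate), -0.25 to 0.58 (1 library left out, lowest without Y665H male 2) and -1.11 (without males 2 and 3). In females it was -0.16 (limma-voom) and -0.19 (covariate). Its Y665H effect by sex was 0.12 (limma-voom) and -0.70 to 0.15 (1 library left out). For Mup20, Y665H against WT in males was -0.59 (covariate), -0.20 to 0.30 (1 library left out, lowest without male 2), -0.52 (without males 2 and 3) and -0.069 (replicate block). For Mup14 it was -0.33 (covariate) and -0.55 (without males 2 and 3), and the sexes in Y665F differed by -0.34 (limma-voom). For Mup21, Y665H against WT ran from -0.39 to 0.12 in males and from -0.018 to 0.98 in females with 1 library left out (above 0 without male 3, below 0 without female 4). Mup21 in Y665H against Y665F females was -0.26 (covariate) and -0.24 to 0.76 (1 library left out). Mup2's Y665H effect by sex was -0.40 (without males 2 and 3) and Mup3's Y665F effect by sex 0.043 (all counted items). The cause of these changes was not tested.

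Correlations of the deviations of same-numbered samples ran from -0.225 to 0.171. The labels name no pairing, and such correlations cannot show that the replicate numbers carry none. With the replicate block the Y665H effect by sex had 0 called members (Mup20, adjusted p 0.0639), and the other counts did not change. Female libraries are shallower, which limits Mup1, Mup2, Mup7 and Mup14 there.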
